A study of Homo sapiens with 3 samples.

Results

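Oxidative phosphorylation is carried out by 5 protein complexes of the inner mitochondrial membrane, and most of their subunits are encoded in the nucleus. The genes described here are those nuclear subunit genes on the array whose symbol begins NDUFA, NDUFB, NDUFC, NDUFS or NDUFV with digits (complex I), is SDHA to SDHD (complex II), begins UQCR or is CYC1 (complex III), is COX4 to COX8 with a suffix (complex IV), or begins ATP5 (ATP synthase). The rule used names alone and no measured value. It found 79 genes on 153 of the 54675 probe sets, of which 77 are protein-coding and 2 are pseudogenes. All of the cells were SKOV3, an ovarian cancer cell line, stably transduced by lentivirus and selected with puromycin. They carried G9a shRNA1, G9a shRNA2 or a luciferase shRNA that served as the control (Luc shRNA). These 3 conditions were measured on 1 array each, of the Affymetrix Human Genome U133 Plus 2.0 type. There is therefore no replicate error and no value has an SD, and precision is limited by the count of arrays. The comparison asks how the subunit genes of each complex differed from the control when G9a, a methyltransferase for lysine 9 of histone H3, was depleted.

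Complex I takes electrons from NADH and complex II from succinate. Complex III passes them to cytochrome c, and complex IV passes them from cytochrome c to oxygen. The proton gradient built by complexes I, III and IV drives ATP synthase, and a small set of core subunits is encoded by mitochondrial DNA. Nuclear subunit genes are known for high and coordinated transcription, and the factors NRF1, the ETS protein GABP and YY1 have been described at many of their promoters.

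Values below are given in the order Luc shRNA, G9a shRNA1, G9a shRNA2, and log2 ratios to Luc shRNA in the order G9a shRNA1, G9a shRNA2. EHMT2, which encodes G9a, read 182, 29.7 and 79.2, log2 ratios of -2.62 and -1.20, and its mean signal lies under the filter used below. The median signal of the arrays lay between 11.7 and 12.3. Their 75th percentiles were 86.3, 87.2 and 96.0, so the G9a shRNA2 array was the brightest at that level. Of the 6 epithelial and SKOV3 marker genes checked, 5 passed the filter used below, KRT19 did not, and none of the 9 measured leukocyte, endothelial and fibroblast markers did. The ratio of 3′ to 5′ signal, a measure of RNA integrity, was 3.68, 1.83 and 1.47 for β-actin, and it was between 1.12 and 1.15 for GAPDH. The β-actin ratio thus moved with the comparison, and its part in the log2 ratios was not tested.

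The promoters of these genes are shown because shared promoter elements are the sequence feature for which the group is best known. RefSeq promoter windows on GRCh38.p14, from 250 bases before to 50 bases after a start site, were at hand for 62 of the 71 subunit genes that passed the filter. They were searched on both strands for the NRF1 palindrome, spelled by the capitals of the first 4 sites below, for CCGGAAG (ETS) and for AAGATGGCG (YY1). The last letters of the ETS motif, AAG, are the first of the YY1 motif, so 1 stretch can hold both. The NRF1 letters were found in 4 of the 62 genes, and the sites are given 5′ to 3′ on the strand of the gene, with the motif in capitals.
ATP5F1C (chr10:7788145-7788174, plus strand): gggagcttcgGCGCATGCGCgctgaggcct
NDUFA8 (chr9:122159764-122159793, minus strand): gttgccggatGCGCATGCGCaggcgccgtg
NDUFB4 (chr3:120596167-120596196, plus strand): agagcacttcGCGCATGCGCatatcaccga
SDHD (chr11:112086753-112086782, plus strand): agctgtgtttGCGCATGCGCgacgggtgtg
The YY1 letters were found in 8 genes. The sites of 3 complex I genes that are described below, of which NDUFA9 and NDUFB8 had higher and NDUFA7 lower signals with both G9a shRNAs, read as follows.
NDUFA7 (chr19:8321343-8321371, minus strand): tcgcggacggAAGATGGCGtccgccaccc
NDUFA9 (chr12:4649114-4649142, plus strand): attgtgggaaAAGATGGCGgctgccgcac
NDUFB8 (chr10:100529836-100529864, minus strand): gaagaaggtgAAGATGGCGgtggccaggg

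These YY1 letters began at base 15 of the transcribed sequence in NDUFA7, base 11 in NDUFA9 and base 18 in NDUFB8. The NRF1 letters were in 6.45% of subunit genes, in 3.09% of the 6693 genes past the filter that have a window, and in 1.24% of all 35116 windows. The YY1 letters were in 12.9%, 5.41% and 1.75%, and the ETS letters in 19 subunit genes, 30.6%, against 24.9% and 10.3%. A gene with several start sites has several windows, and a match describes letters in a window, not binding of a factor. ATP5F1B, ATP5F1D, ATP5MC3, COX6C, CYC1, NDUFB5, NDUFB9, SDHC and UQCRB had no window. They are left out of the subunit shares above and of the subunit medians that follow. The 19 subunit genes with the ETS letters had median log2 ratios of 0.03 and 0.13, and the other 43 had 0.00 and 0.08. For the YY1 letters the medians were 0.04 and 0.12 with the motif and 0.00 and 0.10 without it. The 4 genes with the NRF1 letters had -0.15 and 0.00, and the other 58 had 0.01 and 0.11.

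Subunit genes were among the brightest on the arrays, and they differed little between the control and either G9a shRNA. Each gene was read from its brightest probe set by mean log2 signal over the arrays, and it passed the filter when that mean reached the 75th percentile of all values, a signal of 89.7. Of the 79 genes, 71 passed, and their signals ran from 376 to 6471. On all 3 arrays, 70 of the 71 lay in the top 10% of probe sets, the exception being NDUFV3. The 8 genes under the filter had signals from 0.509 to 43.9 and are given no fold.

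The median log2 ratio of the 71 genes was 0.00 with G9a shRNA1 and 0.11 with G9a shRNA2. The corresponding medians over all 7913 genes past the filter were 0.00 and 0.13. With G9a shRNA1, 36 subunit genes (50.7%) lay above 0, beside 50.5% of all genes. With G9a shRNA2, 58 (81.7%) lay above 0, beside 67.9% of all genes. After quantile normalization the counts were 46 and 45 of 71 (64.8% and 63.4%), beside 52.9% and 52.1% of all genes. The subunit median with G9a shRNA2 was thus close to that of all genes as deposited, while a larger share of subunit genes lay above 0. After quantile normalization, which gives the 3 arrays the same distribution, the subunit medians were 0.04 and 0.05 against 0.03 and 0.01 for all genes.

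No subunit gene was past 2-fold, the study's own rule of size, with either shRNA, as deposited or after quantile normalization. Among all genes past the filter, 0.758% were past 2-fold higher and 1.52% lower with G9a shRNA1, and 1.11% higher and 0.341% lower with G9a shRNA2. After quantile normalization these shares were 0.796%, 1.5%, 0.619% and 0.569%. At a smaller step of 25% above or 20% below the control, a log2 ratio of 0.32 in size and called the 25% step below, 2 of 71 subunit genes were higher with G9a shRNA1 and 3 were lower, beside 16.7% of all genes in each direction. These shares of the subunit genes are 2.82% and 4.23%. With G9a shRNA2, 9 subunit genes were higher past the 25% step (12.7%, beside 24.6% of all genes) and 1 was lower (1.41%, beside 7.54%). After quantile normalization the counts were 3 higher and 2 lower with each shRNA, beside 17.4% and 15.9% of all genes with G9a shRNA1 and 13.9% and 13.3% with G9a shRNA2.

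Ratios of bright genes spread less than those of all genes past the filter (SD of 0.28 and 0.25 against 0.39 and 0.34), so the subunit genes were also set beside the 1367 genes at or above the lower quartile of their own signals, 1025, which 53 of them reached. Of these 1367 genes, 6.66% were higher past the 25% step and 12.4% lower with G9a shRNA1, against 1 and 0 of the 53 subunit genes. With G9a shRNA2 the shares were 11.2% higher and 4.32% lower, against 5 and 1 of the 53. The medians of the 53 subunit genes were 0.01 and 0.11, above those of the 1367 genes at -0.03 and 0.07. After quantile normalization they were 0.06 and 0.05 against 0.02 and 0.01. The SD of the log2 ratios across genes, a spread over genes and not an error, was 0.14 and 0.15 for these 53 subunit genes and 0.28 and 0.25 for the 1367 genes. Genes are not replicates, and no test was made of these differences in spread. The 2 comparisons share the Luc shRNA array.

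**Figure D1:**
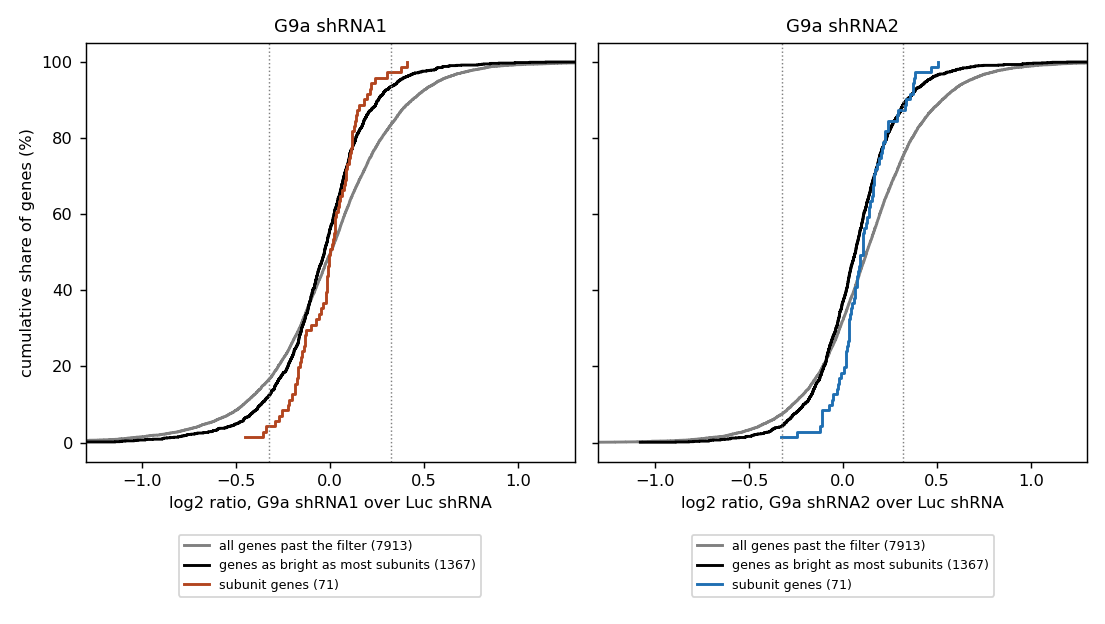
Cumulative share of genes (y axis, %) by log2 ratio to the Luc shRNA array (x axis) with G9a shRNA1 (left) and G9a shRNA2 (right), for the 71 subunit genes past the filter (coloured), the 1367 genes at or above the lower quartile of their signals (black) and all 7913 genes past the filter (grey); dotted lines mark the 25% step, and the axis leaves out the few genes beyond its ends. The subunit curves are the steepest, from -0.45 to 0.41 with G9a shRNA1 and from -0.33 to 0.51 with G9a shRNA2.

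A comparison that leaves out the control array set G9a shRNA2 directly over G9a shRNA1. As deposited, 59 of 71 subunit genes (83.1%) were higher on the G9a shRNA2 array, beside 74.9% of all genes past the filter, by a median log2 difference of 0.12, and all genes past the filter differed by a median of 0.13. After quantile normalization the subunit median of this difference was 0.01 and 36 of 71 (50.7%) were higher, beside 49.0% of all genes. The SD across subunit genes was 0.13, and that across all genes past the filter was 0.23.

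At the brightest probe sets, complexes III and IV had the highest medians, and complex I and ATP synthase lay nearest to 0 with G9a shRNA1. Complex I, with 32 genes, had median log2 ratios of 0.00 and 0.11, or 0.04 and 0.03 after quantile normalization. Complex II, with 3 genes, had 0.02 and 0.03, or 0.04 and -0.04. Complex III, with 7 genes, had 0.09 and 0.18, or 0.13 and 0.10. Complex IV, with 12 genes past the filter, had 0.06 and 0.15, or 0.10 and 0.11. ATP synthase, with 17 genes past the filter, had -0.01 and 0.04, or 0.04 and -0.01. Every one of these medians was smaller than the 25% step, and with 1 array per condition no error can be given for the order of the complexes. With each gene taken as the mean of its probe sets, complex III gave -0.02 with G9a shRNA1, on the other side of 0. Complex II was then highest, at 0.095. Without probe sets of the kinds that can match several transcripts, complex III gave -0.008 with G9a shRNA1, below ATP synthase at 0.024. The order with G9a shRNA1 thus depended on the choice of probe sets.

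**Figure D2:**
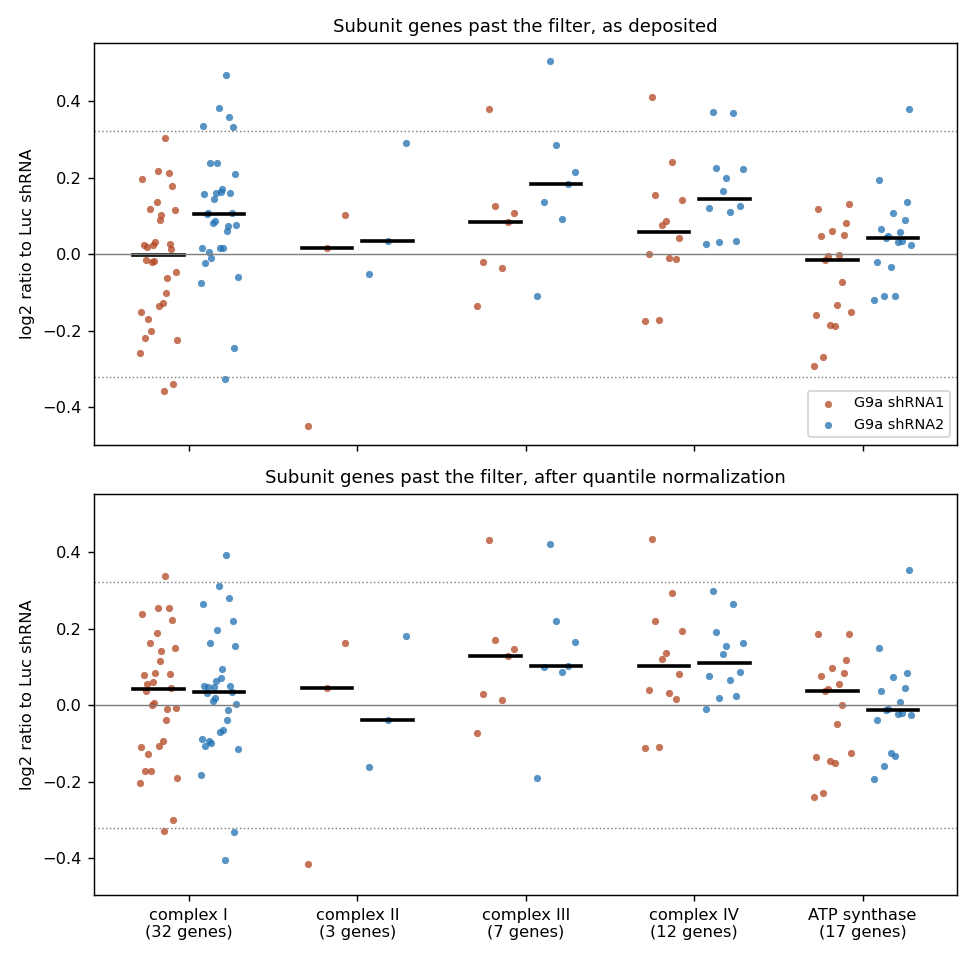
Log2 ratio to the Luc shRNA array (y axis) of each of the 71 subunit genes past the filter, by complex (x axis), with G9a shRNA1 (brown) and G9a shRNA2 (blue), as deposited (top) and after quantile normalization (bottom); black bars are medians, dotted lines mark the 25% step, and each point rests on 1 array per condition. No gene reaches 2-fold, CYC1 and COX7B2 are the genes past the upper dotted line with both shRNAs as deposited, and SDHA lies lowest with G9a shRNA1.

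In complex I, the core subunits form the path of electrons from NADH to quinone. Their 5 genes measured here had medians of -0.13 and 0.11, or -0.11 and 0.03 after quantile normalization. NDUFV1, which binds NADH and the flavin, had signals of 1072 (Luc shRNA), 897 (G9a shRNA1) and 1154 (G9a shRNA2), so the control lay between the G9a shRNA arrays. NDUFV2, an iron-sulfur subunit beside it, had 1899.7, 1917 and 2009, within 0.08 of the control on the log2 scale. The largest iron-sulfur subunit, NDUFS1, had 410.4, 376 and 462. NDUFS7, at the quinone site, had 588, 512 and 595, and NDUFS3, in the arm between them, had 815, 833 and 911. None of these 5 genes was past the 25% step with either shRNA at its brightest probe set. Dimmer NDUFS1 probe sets past the filter gave -0.26 and -0.08, and -0.47 and 0.14, the -0.47 past that step. The core gene NDUFS8 has no probe set with a single gene symbol here. Its probe sets with several symbols gave -0.36 and -0.10, -0.49 and -0.26, and, near the filter, 0.18 and 0.09.

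The 27 accessory subunits of complex I, which surround the core, had medians of 0.02 and 0.11. NDUFA13, also known as GRIM-19, had signals of 1481 (Luc shRNA), 1677 (G9a shRNA1) and 2052 (G9a shRNA2). Its log2 ratios were 0.18 and 0.47, or 0.22 and 0.39 after quantile normalization. Among brightest probe sets, those with G9a shRNA2 were the highest in complex I in either scale. NDUFA9, a subunit near the quinone site, had signals of 589, 685 and 741, log2 ratios of 0.22 and 0.33. NDUFB8, a subunit of the membrane arm, had 569, 703 and 636, with 0.30 and 0.16. A further NDUFB8 probe set, with a Luc shRNA signal of 474, gave 0.29 and 0.60, or 0.31 and 0.48 after quantile normalization. With G9a shRNA2 it lay above NDUFA13 in either scale. Both G9a shRNA arrays lay above the control in these 3 genes.

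With G9a shRNA2, NDUFA1, NDUFB7 and NDUFB10 were also higher past the 25% step, at 0.34, 0.38 and 0.36. With G9a shRNA1 the same genes gave 0.10, -0.02 and -0.06. At the brightest probe sets, NDUFA13 was the one complex I gene still higher past that step with G9a shRNA2 after quantile normalization. A dimmer NDUFB10 probe set, with a Luc shRNA signal of 399.7, gave -0.36 and -0.04.

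The lowest complex I genes by the mean of both ratios were NDUFB3 and NDUFA7. NDUFB3, a small subunit of the membrane arm, had signals of 1149 (Luc shRNA), 908 (G9a shRNA1) and 969 (G9a shRNA2), log2 ratios of -0.34 and -0.25, or -0.30 and -0.33 after quantile normalization. NDUFA7, an accessory subunit of the matrix arm, had 1233, 1057 and 983, with -0.22 and -0.33, or -0.17 and -0.40. In both genes the control array was the highest of the 3. NDUFA10 had 656, 513 and 659, so that it was lower with G9a shRNA1 alone, at -0.36 and 0.01.

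In complex II, SDHA, the flavoprotein that oxidizes succinate, had signals of 574 (Luc shRNA), 420.3 (G9a shRNA1) and 554 (G9a shRNA2). Its log2 ratios were -0.45 and -0.05, the former the lowest of any subunit gene with G9a shRNA1 at the brightest probe sets. The SDHA probe set is of the kind that can match several transcripts (its name ends in _x_at), and RefSeq lists 4 pseudogenes named for SDHA. SDHC and SDHD anchor the complex in the membrane. SDHC had signals of 740.4, 749 and 906, log2 ratios of 0.02 and 0.29, and SDHD had 1082, 1162 and 1108, with 0.10 and 0.03. SDHC has 6 probe sets past the filter, and they did not all move together. Those with Luc shRNA signals of 687 and 497 lay near the brightest, at 0.005 and 0.25, and at 0.09 and 0.27. Another had signals of 713, 939.7 and 508, log2 ratios of 0.40 and -0.49, past the 25% step in opposite directions. The dimmest, near the filter at a Luc shRNA signal of 93.0, gave 0.25 and 0.44, and the last, at 126, gave -0.18 and -0.12. SDHB, the iron-sulfur subunit, was not analysed here.

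In complex III, CYC1 stood furthest above the control of all 71 genes by the mean of both ratios. CYC1 encodes cytochrome c1, the heme subunit that hands electrons to cytochrome c. Its signals were 1037 (Luc shRNA), 1349 (G9a shRNA1) and 1473 (G9a shRNA2), log2 ratios of 0.38 and 0.51, or 0.43 and 0.42 after quantile normalization. It was the only subunit gene past the 25% step in the same direction with both shRNAs in both scales. CYC1 has 1 probe set, so no second measurement on these arrays bears on it. The core proteins UQCRC1 and UQCRC2 had signals of 2189, 2159 and 2667, and of 1909.7, 2084 and 2167. These are log2 ratios of -0.02 and 0.29 for UQCRC1 and of 0.13 and 0.18 for UQCRC2. UQCR11, an accessory subunit and the lowest of complex III by the mean of both ratios, had 1631, 1485 and 1511, with -0.13 and -0.11. UQCRB, a subunit near the quinone site, had 5026, 4905 and 5361, with -0.04 and 0.09. The Rieske iron-sulfur gene UQCRFS1 was not analysed here.

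Several complex IV subunits have a ubiquitous isoform and another known from muscle, lung or testis, and their probe sets are described here against the filter, since signals of different probe sets are not levels that can be compared. COX4I1, COX6A1, COX6B1, COX7A2, COX7B and COX8A, the ubiquitous forms, all passed the filter, with median log2 ratios of 0.08 and 0.16. COX4I1 had signals of 3418, 3423 and 3692. The lung form COX4I2 had 16.9, 17.5 and 17.2, the muscle forms COX6A2 and COX7A1 had 3.27, 12.1 and 10.8 and 0.967, 0.587 and 0.919, and the testis forms COX6B2 and COX8C had 3.72, 8.88 and 1.12 and 3.79, 0.509 and 0.622. These 5 probe sets lay under the filter on every array, with signals too near the background for a fold, and a low signal of 1 probe set does not show that a transcript is low.

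COX7B2, the testis-type counterpart of COX7B, was the exception and passed the filter. Its signals were 625 (Luc shRNA), 831 (G9a shRNA1) and 809 (G9a shRNA2). Its log2 ratios were 0.41 and 0.37, or 0.43 and 0.27 after quantile normalization, so it was past the 25% step with both shRNAs as deposited and with G9a shRNA1 alone after normalization. COX7B itself had 4264, 4699.8 and 4899.5 in the same order, with 0.14 and 0.20. COX7A2L, a relative of COX7A2 that takes part in supercomplexes, had 1421, 1679.6 and 1837, with 0.24 and 0.37, or 0.29 and 0.30 after quantile normalization. COX5B and COX8A lay lowest in complex IV by the mean of both ratios. COX5B had 3566, 3169 and 3999, and COX8A had 2791, 2473 and 3034, with the control between the G9a shRNA arrays in both. At their brightest probe sets, all 12 complex IV genes past the filter were above the control with G9a shRNA2, beside 67.9% of all genes. Other probe sets past the filter gave -0.11 for COX4I1, -0.03 and 0.09 for COX7C, and 0.36 and 0.26 for COX5B with G9a shRNA2. After quantile normalization 11 of the 12 genes were above the control at their brightest probe sets, beside 52.1% of all genes.

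**Figure D3:**
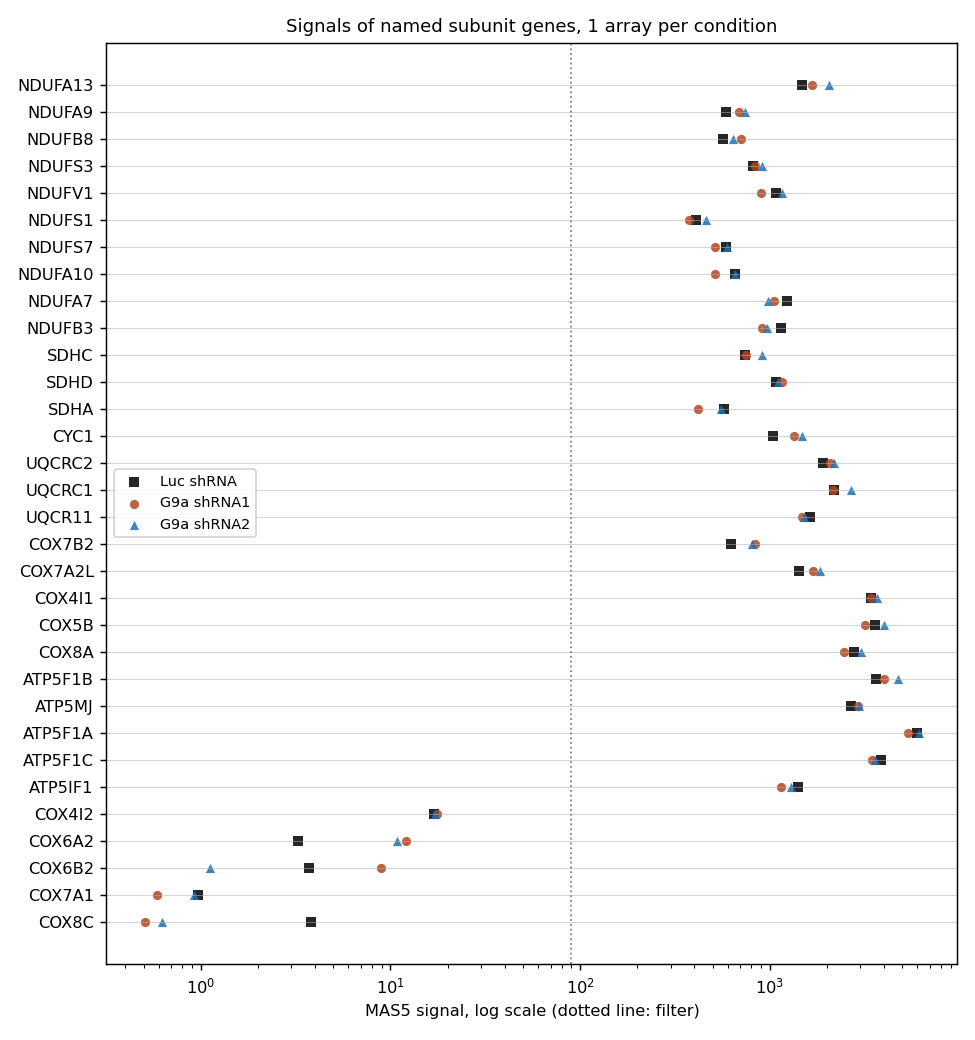
MAS5 signal on a log axis (x axis) of 32 named subunit genes (y axis) on the Luc shRNA (black squares), G9a shRNA1 (brown circles) and G9a shRNA2 (blue triangles) arrays, 1 array each; the dotted line marks the filter at 89.7. The 3 symbols of a gene nearly coincide for the genes past the filter, COX7B2 lies with them at 625 to 831, and the tissue isoforms COX4I2, COX6A2, COX6B2, COX7A1 and COX8C lie below 20.

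In ATP synthase, the catalytic head gave values on both sides of the control. ATP5F1B, the catalytic β subunit, had signals of 3647 (Luc shRNA), 3995 (G9a shRNA1) and 4742 (G9a shRNA2). Its log2 ratios were 0.13 and 0.38, or 0.19 and 0.35 after quantile normalization, past the 25% step with G9a shRNA2 in both scales. ATP5F1A, the α subunit, had 5952, 5355 and 6095, with -0.15 and 0.03. ATP5F1C, the γ subunit of the rotating stalk, had 3847, 3448 and 3565 at its brightest probe set, with -0.16 and -0.11. Its other probe sets past the filter gave -0.02 and 0.045, and -0.07 and 0.04. The 3 genes for the c-ring of the membrane rotor, ATP5MC1, ATP5MC2 and ATP5MC3, lay between -0.19 and -0.07 with G9a shRNA1 and between -0.03 and 0.05 with G9a shRNA2. The 4 peripheral stalk genes ATP5PB, ATP5PD, ATP5PF and ATP5PO lay between -0.01 and 0.06 with G9a shRNA1 and between 0.02 and 0.11 with G9a shRNA2. ATP5IF1, the inhibitor that blocks ATP hydrolysis, had 1408, 1151 and 1295, with -0.29 and -0.12 at its brightest probe set, but its other probe sets ran up to 0.30 and 0.35. ATP5MJ, a small membrane subunit, had 2689.6, 2919.95 and 2959.9, with 0.12 and 0.14 at its brightest probe set. A dimmer ATP5MJ probe set, with a Luc shRNA signal of 720, gave 0.41 and 0.12, the former past the 25% step.

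The probe sets of a gene disagreed by about as much as the genes differed from the control. For the 21 genes with several probe sets past the filter, the median range between probe sets of a gene was 0.17 on the log2 scale with G9a shRNA1 and 0.18 with G9a shRNA2. The range was wider than the 25% step in 6 genes with G9a shRNA1 and in 5 with G9a shRNA2. The widest with G9a shRNA1 was 0.96, in ATP5MC3, where a probe set with a Luc shRNA signal of 294 gave -1.03 and -0.32 and the brightest gave -0.07 and 0.05. The brightest probe set of 42 of the 71 genes was of a kind that can match several transcripts, and 43 have at least 1 pseudogene named for them in RefSeq, 18 in the case of COX6C, so part of a signal can come from copies. Bright probe sets for NDUFC2, NDUFS5 and NDUFS8 carry several gene symbols and are outside the rule. ATP5MF, a small subunit of the membrane part of ATP synthase, is counted under the filter by its probe set with 1 symbol, at signals of 2.24, 2.58 and 3.46. A probe set that it shares with another symbol, outside the rule, read 1684, 1771 and 2144, with 0.07 and 0.35, the latter past the 25% step. NDUFS8 gave -0.36 and -0.10 at its brightest probe set (signals of 1143, 889 and 1066).

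Treating the G9a shRNA arrays as 1 group against the lone Luc shRNA array, which is then assumed to vary like them, limma called 0 of the 71 subunit genes at an adjusted p under 0.05 over all 7913 genes and 426 of all genes. At an unadjusted p under 0.05 it gave 1 subunit gene (CYC1, adjusted p = 0.252), 1.41% of the 71, beside 18.1% of all genes. This fit takes different shRNAs, with unequal EHMT2 signals, as repeats, so its p-values carry no error for a condition and nothing is drawn from them about the subunit genes.

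The genes around the complexes are described by the same counts. The 7 measured genes of mitochondrial DNA had medians of 0.04 and 0.03. COX1, the catalytic subunit of complex IV, had signals of 6112, 7999 and 7865, with 0.39 and 0.36. ND6, which is transcribed from the other strand of mitochondrial DNA than the rest, had 305, 231 and 177, with -0.40 and -0.79. Of 41 assembly factors past the filter, 6 were higher past the 25% step and 9 lower with G9a shRNA1 (14.6% and 22.0%), and 9 and 4 with G9a shRNA2 (22.0% and 9.76%). Beside these and the following lists stand the shares over all genes, 16.7% higher and 16.7% lower with G9a shRNA1, and 24.6% and 7.54% with G9a shRNA2. NDUFAF3, an assembly factor of complex I, had 819, 376 and 527, with -1.12 and -0.64. ACAD9, which also serves complex I assembly, had 227, 108 and 179.8, with -1.07 and -0.34. Other assembly factors went the other way with both shRNAs. Among them were NDUFAF4 at 0.55 and 0.435, TMEM126B at 0.36 and 0.48, and UQCC1 at 0.73 and 0.62.

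Regulators of mitochondrial biogenesis had medians of 0.16 and 0.19 over 16 genes, or 0.15 and 0.05 after quantile normalization. Of these, 4 were higher past the 25% step and 1 lower with G9a shRNA1 (25% and 6.25%), and 5 and 0 with G9a shRNA2, where 31.2% were higher. ESRRA, a nuclear receptor that acts on subunit genes, had signals of 112.5, 184 and 209, with 0.71 and 0.90. PPRC1, a coactivator of the PGC-1 family, had 107, 158.5 and 159.8, with 0.56 and 0.57, and TFB2M, a transcription factor of mitochondrial DNA, had 508.5, 769 and 719, with 0.60 and 0.50. GABPA, the DNA-binding subunit of GABP, had 219.7, 167 and 177, with -0.40 and -0.31, and NRF1 had 98.2, 102.5 and 107.6, with 0.06 and 0.13.

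The medians of 2 lists lay above the subunit medians with both shRNAs. These were mitochondrial ribosomal protein genes and genes named TOMM or TIMM with digits, called translocase genes here. The 75 mitochondrial ribosomal protein genes had medians of 0.13 and 0.21, with 12 higher past the 25% step and 4 lower with G9a shRNA1 (16% and 5.33%), and 17 and 0 with G9a shRNA2. The 16% and the 22.7% higher lay under the shares of all genes. The 20 translocase genes had 0.09 and 0.21, with 3 past that step higher and 0 lower with G9a shRNA1 (15% higher), and 6 and 0 with G9a shRNA2 (30% higher). The 20 genes of the tricarboxylic acid cycle and pyruvate dehydrogenase had -0.05 and 0.11, with 2 higher and 5 lower (10% and 25%), and 3 and 2 (15% and 10%). Among them IDH2, the mitochondrial NADP isocitrate dehydrogenase, had signals of 446, 131 and 255, with -1.77 and -0.81. PDK4, a kinase that inhibits pyruvate dehydrogenase, had 108.6, 217 and 222, with 0.999 and 1.03. PDP1, the phosphatase that acts against it, had 878, 1734 and 1868, with 0.98 and 1.09. The 16 glycolysis genes had medians of -0.14 and -0.05, with 0 higher and 3 lower (18.8% lower), and 1 and 1 (6.25% each). None of the 53 cytosolic ribosomal protein genes was past the 25% step with either shRNA, and their ratios had an SD across genes of 0.09 and 0.07, narrower than the 0.17 and 0.16 of the 71 subunit genes. No test was made between these lists.

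**Figure D4:**
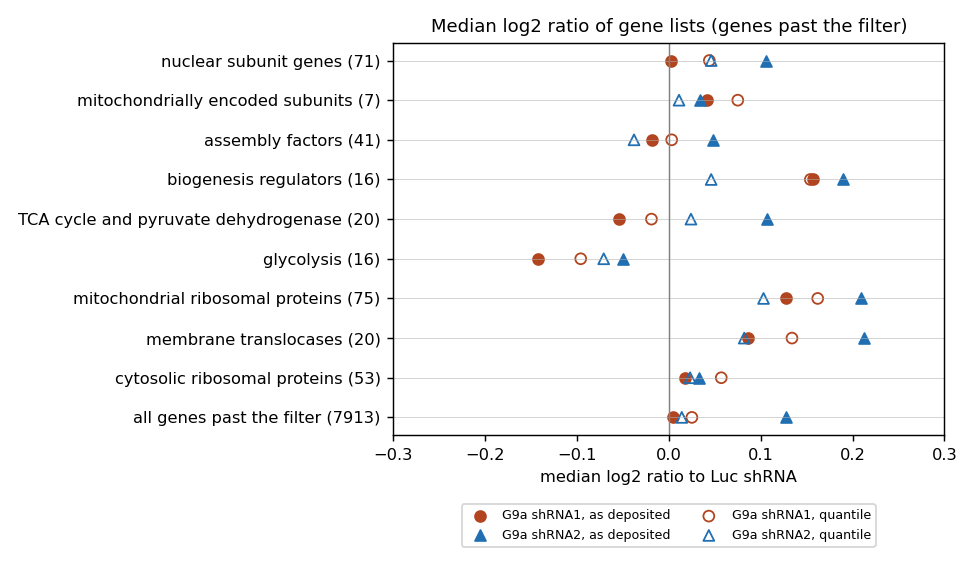
Median log2 ratio to the Luc shRNA array (x axis) of the nuclear subunit genes and of 8 other gene lists (y axis, with the number of genes past the filter), where circles stand for G9a shRNA1 and triangles for G9a shRNA2, as deposited (filled) and after quantile normalization (open); each value rests on 1 array per condition. The subunit genes lie at 0.00 and 0.11, close to all genes past the filter at 0.00 and 0.13, and mitochondrial ribosomal protein genes lie at 0.13 and 0.21.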

How the data were processed

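Signal intensities of 54675 probe sets on 3 arrays were deposited by the authors, who made them with MAS5 per the labels; its version, settings and scaling target are not given in the sources used here. Deposited values, on a linear scale, were divided by those of the Luc shRNA array, and the quotient is given as a log2 ratio. Of the probe sets, 41097 carry 1 gene symbol in the array annotation, 1801 several and 11777 none; all 153 subunit probe sets matched the RefSeq gene table. Of several probe sets of a gene the brightest by mean log2 signal was taken, and kept where that mean reached the 75th percentile of all values (89.7). The members, gene lists and rules were chosen with earlier results of these data known, and the set of 1367 bright genes and the split of complexes into roles were chosen after seeing the data. The genes named are those past a log2 ratio of 0.32 in 1 direction with both shRNAs, the 2 highest and 2 lowest of each complex, core subunits, tissue isoforms and genes whose probe sets disagree; genes outside these, and those named from the other lists, were chosen after their values were seen. Alternatives were quantile normalization, median centring, centring in 20 signal bins, other filters, a floor, and other choices of probe set. limma 3.58.1 in R 4.3.3 and Python 3.11.15 with numpy 2.4.6 and pandas 2.3.3 were used, and the scripts were tested on simulated data. Signal over background limits the precision, and no count or depth exists for arrays.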

Additional observations from a re-analysis of the deposited data

How the results depend on the processing

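The 12 medians and 8 counts of subunit genes were recomputed under 9 alternatives each. A median was taken as stable when it moved by no more than 0.1 on the log2 scale. A count was stable when it stayed within 1.5 times. These limits were set because no replicate spread exists, and 159 of 180 values were stable. The floor and a filter on the highest signal kept the same 71 genes and their ratios, so those values could not move. A small median could also change sign and count as stable. ATP synthase with G9a shRNA2 did so, at 0.04 as deposited and -0.01 after quantile normalization. The unstable values came with scaling, the filter and, once, the choice of probe set. Median centring, which subtracts 0.13 from every ratio with G9a shRNA2, turned the medians with that shRNA to -0.02 for all subunit genes and -0.02 for complex I. It moved them to -0.093 for complex II, 0.056 for complex III, 0.019 for complex IV and -0.083 for ATP synthase. With the mean of all probe sets of a gene, complex III with G9a shRNA1 had -0.02. Genes higher past the 25% step with G9a shRNA2 went from 9 to 3 after quantile normalization, 2 after median centring and 3 after centring by signal, and those lower from 1 to 2 under each of these and with the filter at the median. With no filter, which brings in the 8 genes near the background, G9a shRNA1 had 5 higher and 6 lower past the 25% step and 3 and 1 past 2-fold, and G9a shRNA2 had 4 lower past the 25% step and 2 and 2 past 2-fold. No paired analysis was possible because each condition has 1 array. Signal near the background limits the genes under the filter.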
